A study of Mus musculus with 6 samples.

Results

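The genes described here encode chromatin remodelers and the readers that work beside them: subunits of the SWI/SNF complexes (BAF in mammals), ISWI and other SNF2-type ATPases, ARID-domain proteins, CHD remodelers, bromodomain proteins, the INO80 complex and methyl-CpG-binding domain proteins. They were taken by symbol: every listed gene whose symbol starts with Smarc, Arid1 to Arid5, Ino80 or Actl6, or is a numbered Chd, Brd, Dpf or Mbd gene or a lettered Bcl7 gene. This gave 57 of the 15703 listed genes. The rule itself uses no values, but it was chosen with earlier results of these data known. RNA was sequenced from the whole neocortex of C57BL/6 mice at postnatal day 0, in 3 wild-type animals (labelled WT) and 3 conditional knockouts (genotype Tcf4 f/f; Emx1Cre/+, labelled cKO). In the cKO, Cre from the Emx1 locus removes the floxed part of Tcf4 in the dorsal forebrain lineage that makes cortical excitatory neurons and glia. Interneurons, microglia and vessel cells of the same tissue keep the gene. The labels do not say whether the WT animals carried floxed alleles or Cre. The libraries are called WT 1 to 3 and cKO 1 to 3, and the replicates have different animal codes in their titles. In bulk tissue, fewer cells of a type and less RNA per cell cannot be told apart.

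Remodelers use ATP to slide, evict or exchange nucleosomes, and so set which promoters and enhancers transcription factors can reach. BAF complexes are built combinatorially. As cortical progenitors become neurons, several positions of the complex are known to change hands: Actl6a gives way to Actl6b, Dpf2 and Phf10 to Dpf1 and Dpf3, and Ss18 to Ss18l1. CHD3, CHD4 and CHD5 are alternative ATPases of the NuRD complex, which joins nucleosome remodeling to histone deacetylation, and MBD2 and MBD3 are alternative subunits of it. Mutations in several of these genes, among them ARID1B, CHD2, CHD7, CHD8 and MBD5, are known causes of neurodevelopmental disorders in people, as are mutations of TCF4.

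Of the 57 genes, 5 were higher in cKO and none was lower (limma on log2(FPKM + 1), Benjamini-Hochberg adjusted p under 0.05 over all 15703 genes). FPKM are fragments per kilobase of exon, scaled by a size for each library, so levels of different genes can be compared. Those called higher were Arid5b, Dpf2, Smarcd3, Smarcad1 and Chd6. Arid5b rose 2.21-fold, and the other 4 rose 1.23-fold (Smarcad1) to 1.36-fold (Dpf2). Among all genes 7.22% were called higher and 8.59% lower. The members' share of higher calls, 8.77%, is therefore near the background. At an unadjusted p under 0.05, 13 members were higher and 3 lower, against 15.8% and 16.3% of all genes. The call of Arid5b was kept when any 1 library was left out, and the other 4 calls were each lost without at least 3 of the 6 libraries in turn. Of all 2483 called genes, 1082 were kept without each library.

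Tcf4 itself, the targeted gene, was at 71.2, 75.6 and 75.3 FPKM in WT against 56.5, 60.6 and 55.3 FPKM in cKO, so the groups were apart (limma adjusted p = 0.00411). Approximate reads in listed genes, recovered from the FPKM values, were 25.4 M to 28.8 M per library. In every library this sum exceeds the library size of 23.2 M to 26.1 M used to recover the reads, so depth is known only roughly. Of the cell type markers, 3 of 13 progenitor and cell cycle genes were higher (Mki67, Top2a and Eomes). Lower were 5 of 6 astrocyte, 3 of 7 microglia and 2 of 6 interneuron markers. So were 2 of 5 oligodendrocyte lineage, 2 of 8 neuron and 1 of 5 red blood cell markers. Of all genes, 7.22% were called higher and 8.59% lower. The summed astrocyte markers were at 507 to 527 FPKM in WT against 299 to 390 FPKM in cKO, the progenitor markers at 157 to 165 and 151 to 191 FPKM, and the neuron markers at 1963 to 1994 and 1889 to 1945 FPKM. Summed microglia markers were at 20.5 to 23.8 and 12.2 to 17.7 FPKM, interneuron markers at 71.4 to 74.8 and 62.4 to 64.1 FPKM, oligodendrocyte lineage markers at 56.5 to 64.3 and 41.2 to 50.5 FPKM, red blood cell markers at 86.3 to 90.7 and 68.0 to 85.7 FPKM, and endothelial markers, with no call among 5, at 28.8 to 35.3 and 28.7 to 32.3 FPKM. No marker was at 0 in any library. Their part in the values below was not tested.

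**Figure D1:**
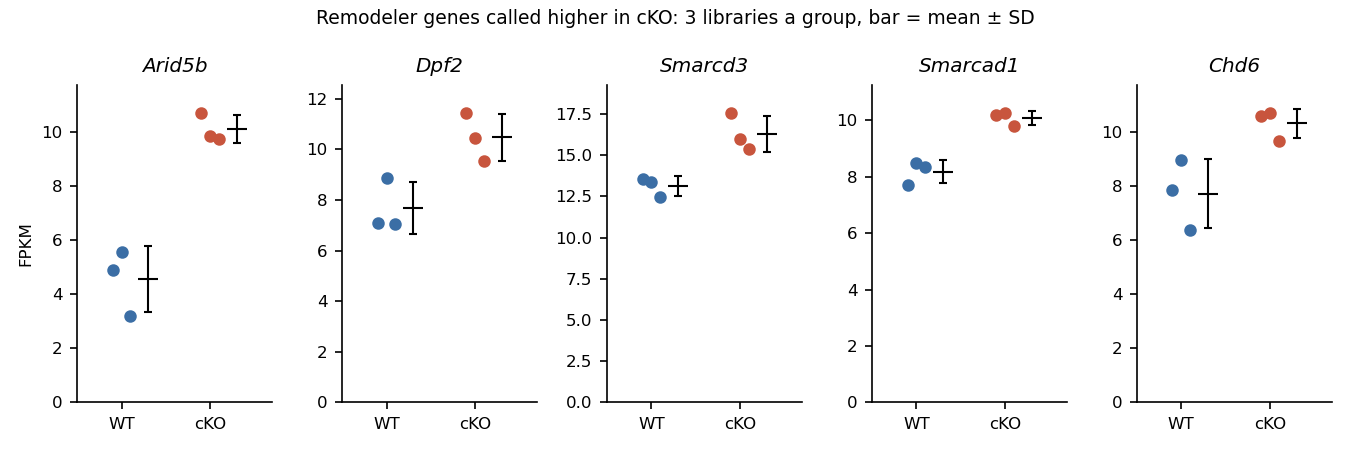
FPKM of the 5 called genes in each of 3 WT and 3 cKO libraries (points), with the group mean ± SD beside them (black) and each axis starting at 0. In every panel the lowest cKO library lies above the highest WT library, and Arid5b has the widest gap.

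Arid5b (ENSMUSG00000019947, chromosome 10, 68092520 to 68278740, minus strand, mm10) encodes a DNA-binding ARID protein that recruits the histone demethylase PHF2 and is no BAF subunit. The libraries stood at 4.90, 5.57 and 3.21 FPKM in WT 1, 2 and 3 against 10.7, 9.85 and 9.73 FPKM in cKO 1, 2 and 3. Every cKO library was well above every WT library, and WT 3 was the lowest. The mean rose from 4.56 ± 1.22 to 10.1 ± 0.514 FPKM (SD, n = 3), a change of 1.02 on the log2 scale (SE 0.14; adjusted p = 0.00128). Without WT 3 the log2 change was 0.83, the smallest of the 6 values with 1 library left out, and the highest adjusted p among them was 0.0104. Its paralog Arid5a was the lowest member of all, at 0.236 ± 0.0665 FPKM in WT against 0.170 ± 0.0293 FPKM in cKO, and was not called (limma adjusted p = 0.395).

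Of the other ARID proteins outside BAF, none passed. Arid4a, a subunit of the Sin3 deacetylase complex, was the most abundant of them, at 11.7, 12.8 and 13.96 FPKM in WT against 12.97, 13.2 and 14.7 FPKM in cKO. The groups overlapped (limma adjusted p = 0.501). Its paralog Arid4b was at 10.5 ± 0.408 and 10.7 ± 0.623 FPKM. Arid3a and Arid3b, DNA-binding factors of the bright family, were low, at 1.54 ± 0.327 and 1.03 ± 0.226 FPKM in WT against 1.92 ± 0.0952 and 1.24 ± 0.269 FPKM in cKO.

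The 250 bases upstream of an annotated start are shown for 3 of the 5 called genes, because a basic helix-loop-helix factor such as Tcf4 is known to bind the E-box, CANNTG. The sequences are from RefSeq (GRCm38.p6, the assembly of mm10) and run 5′ to 3′ on the gene's strand. Capitals mark E-boxes. The windows are chr10:68278727-68278976 for Arid5b, chr2:161109087-161109336 for Chd6 and chr5:24602003-24602252 for Smarcd3, each on the minus strand. The Arid5b and Chd6 windows lie at the 5′ end of the gene. The Smarcd3 window lies at a start inside the gene, which spans 24590818 to 24624411.
Arid5b: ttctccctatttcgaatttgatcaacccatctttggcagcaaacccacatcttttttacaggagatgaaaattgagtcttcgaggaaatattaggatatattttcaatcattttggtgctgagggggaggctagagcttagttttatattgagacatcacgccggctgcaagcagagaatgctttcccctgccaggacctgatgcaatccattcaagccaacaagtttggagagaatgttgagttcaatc
Chd6: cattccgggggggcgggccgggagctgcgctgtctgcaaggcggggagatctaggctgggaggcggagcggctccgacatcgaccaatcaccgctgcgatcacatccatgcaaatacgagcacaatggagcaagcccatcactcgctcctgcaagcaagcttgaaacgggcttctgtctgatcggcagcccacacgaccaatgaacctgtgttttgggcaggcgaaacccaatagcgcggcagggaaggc
Smarcd3: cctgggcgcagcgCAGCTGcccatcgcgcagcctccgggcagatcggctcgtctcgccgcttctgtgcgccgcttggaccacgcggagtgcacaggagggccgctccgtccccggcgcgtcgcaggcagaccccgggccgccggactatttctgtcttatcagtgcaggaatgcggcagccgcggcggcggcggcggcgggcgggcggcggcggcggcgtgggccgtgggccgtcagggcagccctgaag
The Smarcd3 window held 1 E-box, of the form CAGCTG, and the Arid5b and Chd6 windows held none. The window of Dpf2, which lies in an annotated exon and is not shown, held none, and each of the 2 windows of Smarcad1 held at least 1. RefSeq windows were matched by symbol for 43 of the 57 members, giving 56 windows, since some genes have several starts. Read over 250 bases, 28 of these windows (50%) held CANNTG, which like CAGCTG is the same on both strands. The share was 66.2% over all 32851 RefSeq windows, which cover 27025 gene symbols and were not limited to the listed genes. CAGCTG, itself an E-box, was in 5 windows (8.93%, against 13% of all). CAGGTG, an E-box searched on both strands, was in 6 (10.7%, against 17.2%). A match is only a run of letters, and its absence says only that the letters are not in this window.

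The BAF ATPases Smarca4 and Smarca2, which alternate as the motor of the complex, did not pass. Smarca4 was at 65.7, 69.3 and 58.7 FPKM in WT against 76.4, 70.4 and 67.9 FPKM in cKO. The highest WT library, WT 2, was above the lowest cKO library, and the log2 change was 0.15 with a 95% interval of -0.02 to 0.32 (limma adjusted p = 0.209). Smarca2 was lower than Smarca4 in both groups, at 24.9 ± 1.76 FPKM in WT against 25.7 ± 0.539 FPKM in cKO (log2 change 0.05, interval -0.10 to 0.20).

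Of the 7 core and shared BAF subunits, 1 rose, where 7.22% of all genes were called higher. Smarcd3 (ENSMUSG00000028949, chromosome 5) is one of 3 alternative subunits that link BAF to transcription factors, and was at 13.6, 13.4 and 12.5 FPKM in WT against 17.5, 16.0 and 15.4 FPKM in cKO. The groups did not overlap, and cKO 1 was the highest. The mean rose from 13.1 ± 0.589 to 16.3 ± 1.11 FPKM, a change of 0.29 on the log2 scale (SE 0.0711; adjusted p = 0.0223). Without WT 1, cKO 1 or cKO 2 the call was lost, with adjusted p-values of 0.0558, 0.0854 and 0.0666. Of the exon length of Smarcd3, 48.2% lies opposite exons of Chpf2, so without strand part of the reads of both genes cannot be separated. Chpf2 was at 3.37 ± 0.257 FPKM in WT against 3.47 ± 0.106 FPKM in cKO (limma adjusted p = 0.809).

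Its alternatives were not called. Smarcd1 was at 52.4, 44.9 and 47.7 FPKM in WT against 49.3, 46.2 and 44.2 FPKM in cKO, with overlapping groups (log2 change -0.05, limma adjusted p = 0.661). Smarcd2 was at 4.10 ± 0.277 and 3.97 ± 0.364 FPKM. The scaffold Smarcc2 was the second most abundant of the 57 genes, at 106, 112 and 97.9 FPKM in WT against 117, 109 and 106 FPKM in cKO. Its groups overlapped (log2 change 0.07, interval -0.08 to 0.23). The other scaffold, Smarcc1, was at 27.8 ± 2.54 and 28.5 ± 0.227 FPKM. Smarcb1, which contacts the nucleosome, was at 14.3 ± 0.181 and 14.4 ± 0.561 FPKM, and the DNA-binding subunit Smarce1 at 28.8 ± 1.01 and 29.6 ± 0.816 FPKM. For Smarcb1 the 95% interval of the log2 change was -0.13 to 0.15.

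The ARID subunits decide which BAF form is built: Arid1a or Arid1b in canonical BAF and Arid2 in the polybromo form. None of the 3 passed. Arid1a was at 24.8, 27.5 and 22.0 FPKM in WT against 30.3, 29.8 and 28.5 FPKM in cKO. The groups did not overlap, and the log2 change was 0.25 (interval 0.07 to 0.43, limma adjusted p = 0.0659). It was called higher with quantile normalisation (adjusted p = 0.0446), with limma-voom on recovered reads (0.0381), with the replicate number as a block (0.0358) and without WT 2 (0.0190). Over all settings tried for it, including each library left out, the adjusted p reached 0.177. Arid1b was at 11.8 ± 0.856 and 12.6 ± 0.0754 FPKM and Arid2 at 13.9 ± 1.68 and 15.9 ± 0.803 FPKM.

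At the positions of BAF that change as progenitors become neurons, Dpf2 rose. The other progenitor form among the members, Actl6a, was not called, and neither were the neuronal alternatives. Dpf2 (ENSMUSG00000024826, chromosome 19), a histone-reading subunit of BAF in many cell types, was at 7.11, 8.89 and 7.06 FPKM in WT against 11.4, 10.5 and 9.54 FPKM in cKO. The lowest cKO library was above the highest WT library. The mean rose from 7.69 ± 1.04 to 10.5 ± 0.945 FPKM, a change of 0.41 on the log2 scale (SE 0.0975; adjusted p = 0.0205). The call was lost without WT 1, WT 3, cKO 1 or cKO 2, with adjusted p-values of 0.0834, 0.0545, 0.0867 and 0.0639.

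Dpf1, a neuronal counterpart of Dpf2, was at 23.6, 27.2 and 23.9 FPKM in WT against 28.9, 25.1 and 26.1 FPKM in cKO. Its groups overlapped (log2 change 0.10, interval -0.08 to 0.27). Dpf3, the other neuronal counterpart, was at 2.31, 2.62 and 1.92 FPKM in WT against 1.76, 1.74 and 1.60 FPKM in cKO. All cKO libraries were below all WT libraries, and the log2 change of -0.28 did not pass (limma adjusted p = 0.0822; 0.0396 without WT 3). Actl6a was at 5.53 ± 0.656 and 5.90 ± 0.207 FPKM, and its neuronal replacement Actl6b at 27.9 ± 1.08 and 27.5 ± 1.94 FPKM. Neither was called (limma adjusted p = 0.536 and 0.863).

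Among accessory BAF subunits, none passed. Brd9, the bromodomain subunit of the non-canonical form, was the most abundant, at 41.9, 42.0 and 50.3 FPKM in WT against 46.0, 42.8 and 41.7 FPKM in cKO. WT 3 was the highest library and the groups overlapped. Brd7, of the polybromo form, was at 15.4 ± 0.619 and 16.2 ± 0.215 FPKM. The small subunits Bcl7a, Bcl7b and Bcl7c were at 20.6 ± 0.956, 6.95 ± 0.997 and 12.1 ± 0.555 FPKM in WT against 20.3 ± 0.407, 6.15 ± 0.168 and 11.6 ± 0.328 FPKM in cKO. Bcl7b was called lower without WT 2 only.

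**Figure D2:**
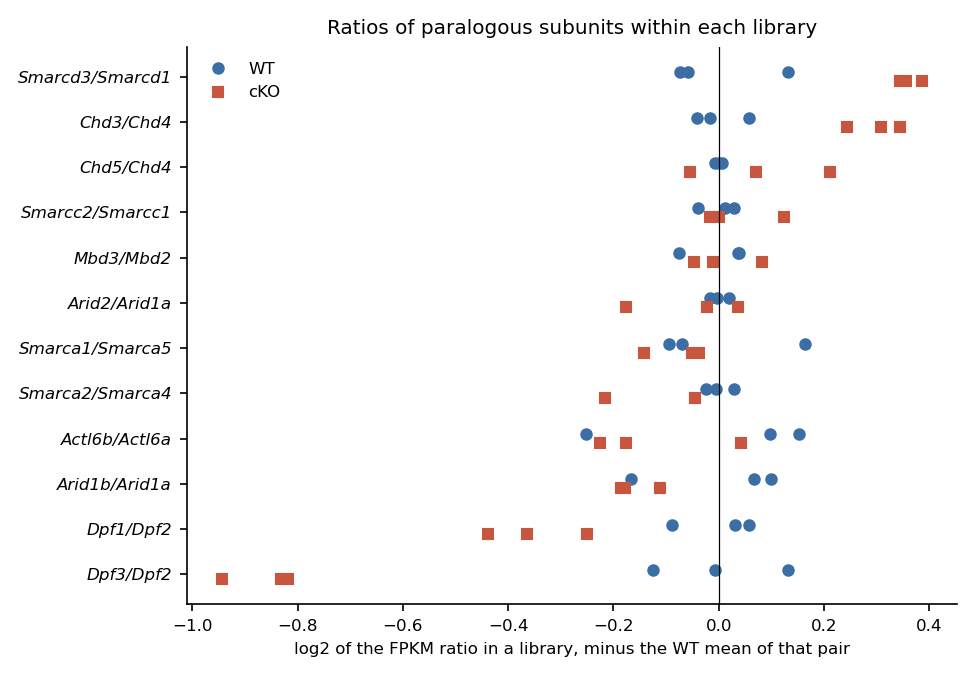
Ratio of 2 paralogous genes within each library, as log2 of the FPKM ratio minus the WT mean of that pair (circles WT, squares cKO, 3 libraries each). In 5 of the 12 pairs the groups were apart, with the widest gap in Dpf3/Dpf2. Single genes had groups apart in 18.5% (higher in cKO) and 18.7% (lower) of all genes.

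A ratio of paralogs within a library cancels any factor common to all genes of that library, though not a scaling that depends on level, such as quantile normalisation. Of 12 pairs compared, the groups were apart in 5, each with an exact 2-sided permutation p of 0.10, the smallest that 3 against 3 libraries can give, and 0.24 after Benjamini-Hochberg adjustment over the pairs. So no pair could pass a threshold of 0.05. For single genes, the groups did not overlap in 18.5% of all genes (higher in cKO) and 18.7% (lower). The share over all gene pairs was not computed. The ratio Dpf3/Dpf2 was 0.325, 0.295 and 0.272 in WT and 0.154, 0.167 and 0.168 in cKO, a log2 difference of -0.86. Dpf1/Dpf2 was 3.32, 3.06 and 3.39 in WT and 2.53, 2.40 and 2.73 in cKO, a log2 difference of -0.35. Both pairs share Dpf2, which rose.

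Smarcd3/Smarcd1 was 0.259, 0.298 and 0.261 in WT and 0.356, 0.345 and 0.348 in cKO. Smarca2/Smarca4 moved less, from a mean of 0.386 ± 0.00714 to 0.360 ± 0.0241, a log2 difference of -0.10. The ratio was 0.332 in cKO 1 and 0.374 in both other cKO libraries, against 0.379 to 0.393 in WT. Without cKO 1 the log2 difference was -0.05, and with quantile normalisation -0.17. Actl6b exceeded Actl6a in each library, 5.63-, 5.42- and 4.25-fold in WT and 5.22-, 4.33- and 4.48-fold in cKO. At that position the groups overlapped (exact permutation p = 0.5). Arid1b/Arid1a, Arid2/Arid1a, Smarcc2/Smarcc1, Smarca1/Smarca5, Chd5/Chd4 and Mbd3/Mbd2 overlapped as well, with exact permutation p-values of 0.2 to 1. With quantile normalisation the log2 difference of Smarcc2/Smarcc1 went from 0.04 to 0.13 (exact permutation p = 0.1).

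The SNF2-type ATPases outside BAF held 1 called gene of 4, where 7.22% of all genes were called higher. Smarcad1 (ENSMUSG00000029920, chromosome 6), which helps to restore silent chromatin after DNA replication, was at 7.71, 8.49 and 8.34 FPKM in WT against 10.2, 10.2 and 9.81 FPKM in cKO. The groups were apart, with little spread within each. The mean rose from 8.18 ± 0.414 to 10.1 ± 0.241 FPKM, a change of 0.27 on the log2 scale (SE 0.0676; adjusted p = 0.0234). The call was lost without WT 1, cKO 1 or cKO 2 (adjusted p = 0.0995, 0.0776 and 0.0945) and when the trend with exon length was removed (0.0725).

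Smarca1 and Smarca5 are the alternative ATPases of ISWI, which spaces nucleosomes evenly. Smarca1 was at 13.8, 16.6 and 13.8 FPKM in WT against 15.1, 14.3 and 15.7 FPKM in cKO, with WT 2 the highest library and overlapping groups. Smarca5 was at 13.3 ± 0.169 and 14.4 ± 0.348 FPKM. Its groups did not overlap, but the log2 change of 0.11 did not pass (limma adjusted p = 0.255). Smarcal1, which acts at stalled replication forks, was at 8.70 ± 0.692 and 9.73 ± 0.303 FPKM.

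Of 8 CHD genes, 1 rose and 7 did not pass, where 7.22% of all genes were called higher. Chd6 (ENSMUSG00000057133, chromosome 2), a remodeler of the subfamily that also holds Chd7 to Chd9, was at 7.85, 8.95 and 6.37 FPKM in WT against 10.6, 10.7 and 9.68 FPKM in cKO. All cKO libraries were above all WT libraries, of which WT 3 was the lowest. The mean rose from 7.72 ± 1.29 to 10.3 ± 0.550 FPKM, a change of 0.38 on the log2 scale (SE 0.104; adjusted p = 0.0334). The call was lost without WT 1, WT 3, cKO 1 or cKO 2, with adjusted p-values of 0.0822, 0.0589, 0.110 and 0.106.

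Within that subfamily Chd9 was at 4.63 ± 0.484 and 5.53 ± 0.152 FPKM (limma adjusted p = 0.102). Chd7, the gene of CHARGE syndrome, was at 3.57 ± 0.102 and 3.42 ± 0.403 FPKM. Chd8, a gene linked to autism, was at 14.9 ± 0.710 and 15.03 ± 0.421 FPKM, with a 95% interval of the log2 change of -0.13 to 0.16. Chd2, linked to epilepsy, was at 8.59 ± 0.556 and 8.25 ± 0.453 FPKM. A further listed gene, identified as Chd1 by its Ensembl identifier but carrying a joint symbol with Riok2, is not among the 57. It was at 8.02 ± 0.0837 and 7.95 ± 0.0926 FPKM.

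The NuRD ATPase Chd3 was the most abundant of the 57 genes, at 123, 129 and 104 FPKM in WT against 144, 137 and 134 FPKM in cKO. The groups did not overlap, WT 3 being the lowest, and the log2 change of 0.23 did not pass (limma adjusted p = 0.0811). It was called with quantile normalisation (adjusted p = 0.0193), with the replicate number as a block (0.0298) and without WT 2 (0.0451), and over all settings tried for it the adjusted p reached 0.216. The alternative ATPase Chd4 was at 50.5 ± 4.23 and 48.2 ± 1.62 FPKM, and the neuron-enriched Chd5 at 30.3 ± 2.52 and 30.6 ± 2.85 FPKM. The ratio Chd3/Chd4 was 2.31, 2.43 and 2.27 in WT and 2.96, 2.77 and 2.89 in cKO, a log2 difference of 0.30 with the groups apart.

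No bromodomain protein outside BAF passed. Brd2 and Brd3 belong to the BET family, which reads acetylated histones and promotes transcription. Brd2 was at 48.1, 45.3 and 48.9 FPKM in WT against 41.9, 40.5 and 44.9 FPKM in cKO, so all cKO libraries were the lower ones (log2 change -0.16, limma adjusted p = 0.120). Brd3 lay the other way, at 32.2 ± 3.42 and 38.1 ± 1.32 FPKM (log2 change 0.24, limma adjusted p = 0.0636), with the groups apart. It had the smallest adjusted p of the members that did not pass, and was called without WT 2. Brd1, a scaffold of histone acetyltransferase complexes, was at 11.6 ± 0.230 and 12.9 ± 0.699 FPKM, and Brd8, of the TIP60 complex, at 11.4 ± 0.884 and 12.2 ± 0.454 FPKM.

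None of 5 genes of the INO80 complex, which evicts and exchanges histones at promoters and replication forks, passed. Ino80b was the most abundant, at 8.19, 8.41 and 8.38 FPKM in WT against 8.46, 7.41 and 9.04 FPKM in cKO. The cKO libraries lay on both sides of the WT ones. The ATPase Ino80 was at 6.67 ± 0.590 and 6.83 ± 0.0927 FPKM. On the log2(FPKM + 1) scale Ino80c had the most negative change of the members, -0.31 (limma adjusted p = 0.112). It was at 9.16 ± 1.89 and 7.13 ± 0.441 FPKM, with overlapping groups. As ratios of mean FPKM, cKO over WT, Arid5a (0.719) and Dpf3 (0.746) lay below Ino80c (0.778). Ino80d and Ino80e were at 4.67 ± 0.289 and 3.30 ± 0.124 FPKM in WT against 5.06 ± 0.160 and 3.71 ± 0.450 FPKM in cKO. The noncoding transcript Ino80dos, whose exons share 431 bases with those of Ino80d on the opposite strand and 489 with Ndufs1, was at 1.45, 1.45 and 1.60 FPKM in WT against 2.23, 2.01 and 1.59 FPKM in cKO, and its groups overlapped.

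Methyl-CpG-binding domain proteins held no called gene among 6. Mbd3 was the most abundant, at 43.1, 44.9 and 47.6 FPKM in WT against 42.6, 42.8 and 43.3 FPKM in cKO. The groups overlapped between WT 1 and cKO 3 (log2 change -0.07, interval -0.21 to 0.06). Mbd2 was at 4.82 ± 0.146 and 4.56 ± 0.172 FPKM, so Mbd3 exceeded it 9.37 ± 0.421-fold in WT and 9.43 ± 0.444-fold in cKO. Mbd1, a transcriptional repressor, was at 13.98 ± 0.205 and 14.02 ± 0.666 FPKM. Mbd4, a DNA repair glycosylase, was at 2.16 ± 0.260 and 2.84 ± 0.290 FPKM (limma adjusted p = 0.0742). Mbd5 and Mbd6, partners of a histone deubiquitinase, were at 3.10 ± 0.340 and 9.18 ± 0.630 FPKM in WT against 3.27 ± 0.0759 and 11.96 ± 2.36 FPKM in cKO. The wide spread of Mbd6 in cKO came with 14.4 FPKM in cKO 1.

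**Figure D3:**
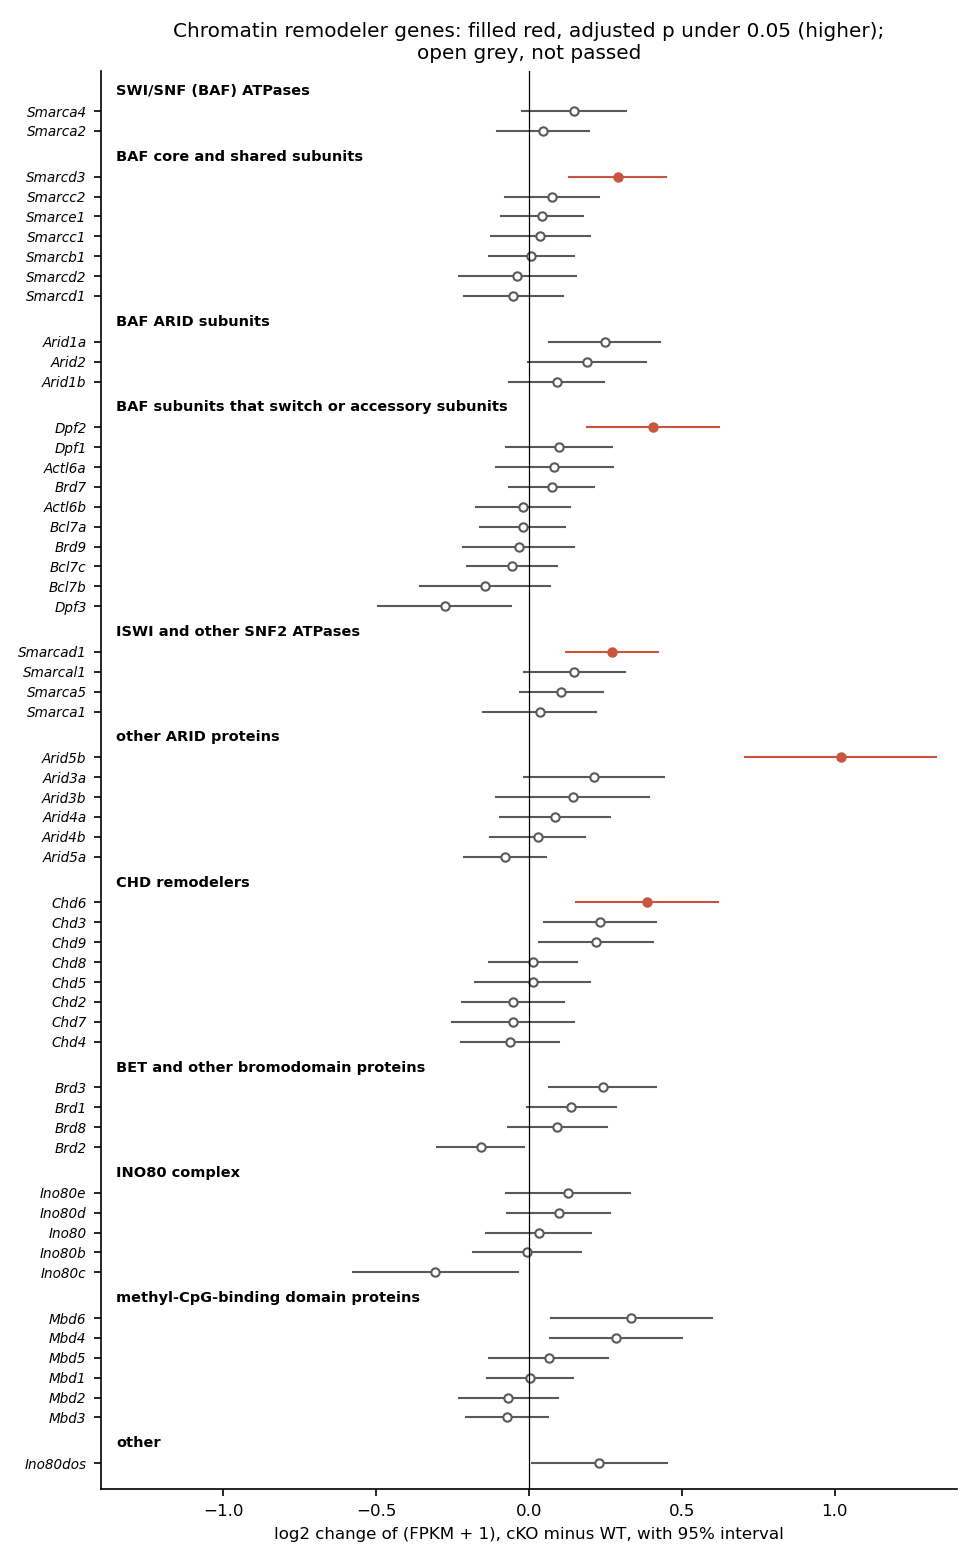
Log2 change of 56 of the genes, each with its 95% interval from limma, grouped by role (filled red, called higher; open grey, not passed). Arid5b stands at 1.02, and the other genes shown lie between -0.31 and 0.41.

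The genes as a set lay slightly on the higher side. The log2 change was positive in 40 of 57 and negative in 17, with a median of 0.073, against 50.4% positive and a median of 0.0017 over all genes. The groups did not overlap in 15 members in the higher direction and in 2 in the lower (Dpf3 and Brd2), where the background was 18.5% and 18.7% of all genes. Among libraries, WT 3 was the lowest of the 6 in 22 members and cKO 1 the highest in 23. Without WT 3, 3 members were called higher (Smarcd3, Smarcad1 and Arid5b; 5.1% of all genes) and 1 lower (Dpf3; 7.2% of all genes), and the median was 0.057. Without cKO 1, Arid5b alone was called (3.6% of all genes higher, 5.29% lower), and the median was 0.055. Without WT 1 (3.46% and 5.29%) or cKO 2 (3.68% and 5.34%), Arid5b was again the 1 member called, with medians of 0.048 and 0.072. Without cKO 3, 6 members were higher and 0 lower (5.35% and 6.79% of all genes). Without WT 2 the counts were 12 higher (10% of all genes) and 2 lower (Ino80c and Bcl7b; 9.66%).

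Other ways of scaling or testing called between 4 and 10 members higher. Quantile normalisation called 8, adding Brd3, Arid1a and Chd3, where 7.93% of all genes were called higher. With limma-voom on recovered reads 10 were called, adding Brd3, Arid1a, Mbd4, Mbd6 and Chd9, with 9.64% of all genes. With the replicate number as a block 7 were higher and 0 lower, adding Arid1a and Chd3, with 8.11% and 9.81% of all genes.

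**Figure D4:**
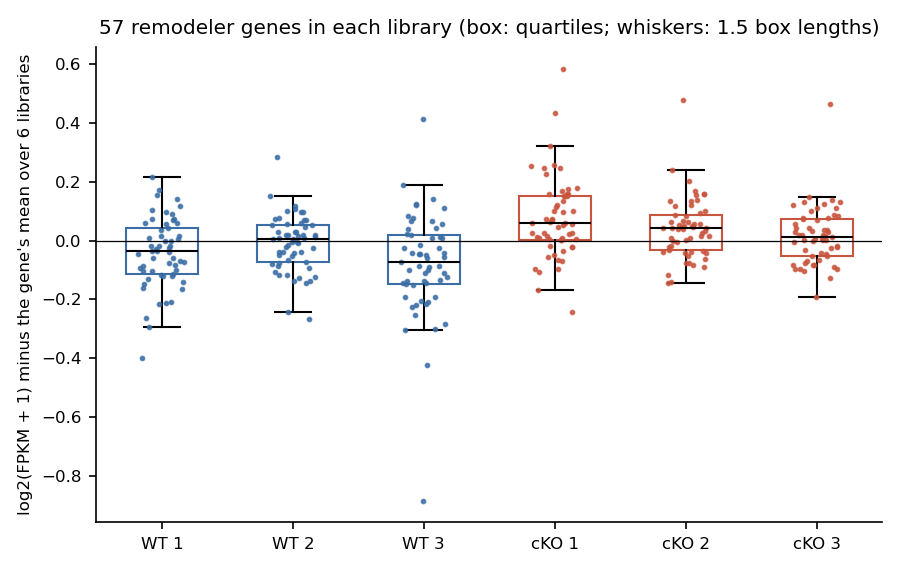
Deviation of log2(FPKM + 1) of the 57 genes from each gene's mean over 6 libraries, by library (points are genes, line the median, box the quartiles). The medians run from -0.07 in WT 3 to 0.06 in cKO 1.

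The genes were long at the median, with a wide spread. Their median summed exon length was 7336 bases, against 4229 for all listed genes, and 34 of 57 fell in the longest class of 4. Over all genes the median log2 change went from -0.08 in the shortest of 4 equal classes (57 to 2533 bases) to 0.06 in the longest (6629 bases and over), where 10.3% were called higher. Within the longest class the members' median was 0.06, and 3 were called. In the third class (4230 to 6627 bases) the median of 13 members was 0.15, against 0.02 for all genes. Of these members 2 were called higher, where 7.08% of all genes of the class were. In the first and second classes the medians of 3 and 7 members were -0.07 and -0.05, against -0.08 and -0.01, and 0 were called. Among all genes of these classes 5.46% and 5.98% were called higher. Across the 57 genes, which share the same 6 libraries, Spearman's rho of log2 change with exon length was 0.21, and across 15661 genes 0.23. In WT 3 the median deviation was -0.07 for the longest class of all genes and 0.10 for the shortest. With the trend on exon length removed within each library, the members' median was 0.025 with 32 of 57 positive, and Arid5b, Dpf2, Smarcd3 and Chd6 were called, where 7.61% of all genes were called higher (log2 changes 0.96, 0.37, 0.27 and 0.31).

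**Figure D5:**
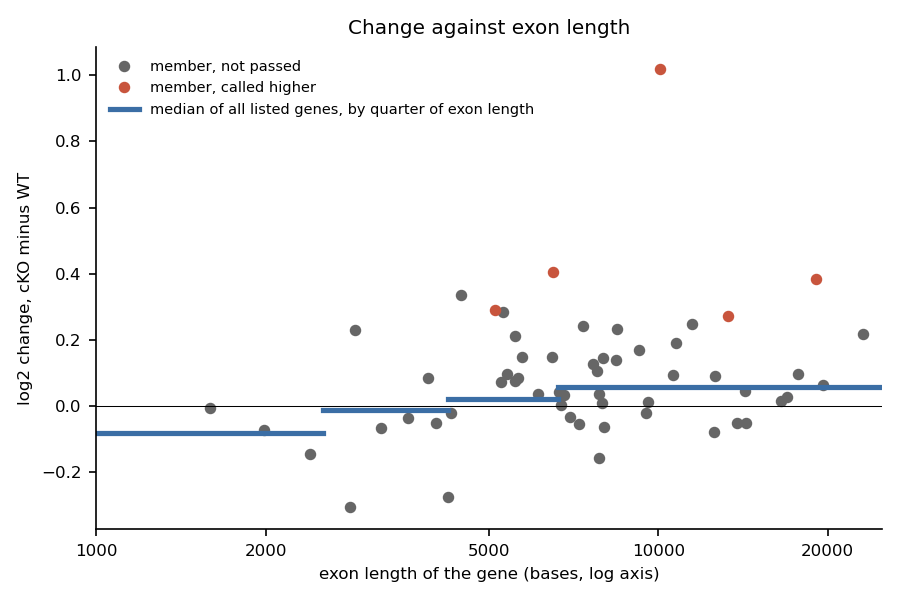
Log2 change of the 57 genes against exon length (log axis), with the median of all listed genes in each class of exon length as blue bars. The bars climb from -0.08 to 0.06, and Arid5b, at 10060 bases and 1.02, lies far above them.

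Partners of these complexes were taken from 7 further lists with 86 genes in all, also chosen with earlier results of these data known. Of these genes 9 were called higher (10.5%, against 7.22% of all genes) and 1 lower (1.16%, against 8.59%), and their median log2 change was 0.074. Their median exon length was 6815 bases, against 4229 for all genes. Among the lists below, it was 13667 bases for ISWI partners and 7377 for the DNA methylation list. In the longest class of all genes 10.3% were called higher. The part of exon length in the shares of these lists was not tested. Of 8 BAF subunits outside the symbol rule, 1 rose (12.5%, against 7.22% of all genes): Ss18, the subunit of progenitor BAF that Ss18l1 replaces in neurons. Ss18 was at 5.65, 6.35 and 5.54 FPKM in WT against 7.42, 8.51 and 8.14 FPKM in cKO, a 1.37-fold rise with the groups apart (limma adjusted p = 0.00906), and was called without any 1 library. Ss18l1 was at 34.1 ± 3.06 and 37.5 ± 0.593 FPKM, and Phf10 at 11.5 ± 0.564 and 12.6 ± 0.173 FPKM, and neither passed. Of the transcription factors that also bind BAF, Bcl11a was at 34.8 ± 1.91 and 31.6 ± 1.24 FPKM and did not pass, nor did Bcl11b.

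Among 12 NuRD and ChAHP partners 1 rose (8.33%, against 7.22% of all genes). It was the deacetylase Hdac1, from 9.74 ± 0.376 to 12.6 ± 0.405 FPKM (limma adjusted p = 0.00694), called also without any 1 library. Of 9 ISWI partners 2 rose (22.2%), Baz2b (4.60 ± 0.178 to 6.20 ± 0.377 FPKM, limma adjusted p = 0.0110) and Baz1b (14.2 ± 2.13 to 18.3 ± 0.755 FPKM, limma adjusted p = 0.0319), both accessory subunits with bromodomains. Baz1b lost its call without 5 of the 6 libraries. Of 24 partners in the INO80, SRCAP and TIP60 complexes 1 rose (4.17%), Epc1 (23.0 ± 1.36 to 27.6 ± 0.739 FPKM, limma adjusted p = 0.0270). It kept its call without WT 3 and lost it without any of the other 5 libraries, where adjusted p reached 0.102. Of 10 other SNF2-family ATPases none passed.

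A list of 11 genes was drawn up for writers, erasers and readers of DNA methylation, and it also held the histone methyltransferase Setdb1. Of these 11, 3 rose (27.3%, against 7.22% of all genes): the demethylating oxygenase Tet2 (6.81 ± 0.623 to 9.19 ± 0.969 FPKM, limma adjusted p = 0.0205), the methyltransferase Dnmt3a (8.99 ± 1.38 to 11.7 ± 0.242 FPKM, limma adjusted p = 0.0334) and Setdb1 (15.7 ± 0.641 to 18.3 ± 0.250 FPKM, limma adjusted p = 0.0471). Dnmt3a and Setdb1 each lost the call without 5 of the 6 libraries, and Tet2 without 2. Among 12 BET partners and other bromodomain genes 1 rose and 1 fell (8.33% each, against 7.22% and 8.59% of all genes). The gene that rose was Brpf3 (3.73 ± 0.182 to 4.97 ± 0.201 FPKM, limma adjusted p = 0.0157). Its call was lost without WT 1 or cKO 1 (limma adjusted p = 0.0613 and 0.0637). The gene that fell was Brdt, a BET gene known from the testis, at 2.81, 2.31 and 2.79 FPKM in WT against 1.65, 1.39 and 1.42 FPKM in cKO (limma adjusted p = 0.00401), with the groups apart and the call kept without any 1 library.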

How the data were processed

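RNA-seq of whole neocortex from 3 WT and 3 cKO mice was analysed. The authors deposited FPKM per gene and library, a unit named per the file headers. The tools STAR 2.5.4b, featureCounts 1.6.1, DESeq2 1.22.1 and the build mm10 are from the submitters' processing notes. For the annotation release, the strand setting and any filter on low genes, nothing is given in the sources used here. Coordinates and exon lengths came from GENCODE M21 (mm10), which matched 15661 of 15703 genes and all 57 members.

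All genes were fitted with limma 3.58.1 in R 4.3.3 on log2(FPKM + 1) with 1 term, genotype, a mean-variance trend, robust moderation and Benjamini-Hochberg adjustment. This scale understates changes of low genes, so fold changes are ratios of mean FPKM. Reads were recovered as FPKM times exon length times a library size of 23.2 M to 26.1 M, at which 94.8% to 96.0% of low values lay within 0.1 of a whole read. They are approximate.

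The members and lists were chosen with earlier results of these data known. Values per library are given for every called member, its paralogs in the pairs compared and the most abundant member of each role. Further members are given as means, and 1 member is not reported here by name. The fit was tested on simulated data. Titles gave the groups and differ in their animal codes. The limma p-values weigh the difference of the groups against the spread between these libraries, moderated over all genes. Ratios were tested by enumeration under Python 3.11.15.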

Additional observations from a re-analysis of the deposited data

How the results depend on the processing

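Of 8 alternatives, all were run: a pseudocount of 0.1, genes with a mean of at least 1 FPKM, quantile normalisation, limma without trend or robust moderation, a replicate block, removal of the exon length trend, limma-voom on recovered reads, and each library left out. Members called higher numbered 8 with quantile normalisation and 10 with limma-voom on recovered reads, and 1 to 12 with 1 library left out. Members called lower numbered 0 to 2 with 1 library left out. Over all genes these left-out counts were 544 to 1572 higher and 830 to 1517 lower. With all 6 libraries they were 1134 higher and 1349 lower, so the left-out counts lay on both sides. Fewer libraries enter the left-out fits, and the cause of the range was not tested.

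With the replicate number as a block, 7 members were higher and 0 lower, and 1274 and 1541 of all genes. Deviations of same-numbered libraries correlated at -0.05, 0.10 and -0.05, so the numbers were not taken as pairs; WT 1 correlated best with cKO 3 (0.21).

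Arid5b kept its call under each alternative, with a log2 change of 0.83 to 1.18. Over all 57 members, 40 changes were positive in the main fit and 32 with the exon length trend removed. Signs of single members were compared only for those whose values per library are given. Some of these changes near 0 turned sign. Brd9 did so with quantile normalisation (0.0103) and with 1 library left out (-0.0788 to 0.0507). Ino80b did so with the exon length trend removed (0.0580) and with 1 library left out (-0.0649 to 0.0630). With 1 library left out, so did Smarca1 (-0.0082 to 0.12) and Smarcd1 (-0.10 to 0.0071). The log2 ratios of Arid2/Arid1a (-0.10 to 0.0073), Smarcc2/Smarcc1 (-0.0078 to 0.0620, and 0.13 with quantile normalisation), Smarca1/Smarca5 (-0.12 to 0.0054) and Mbd3/Mbd2 (-0.0296 to 0.0360) did so too with 1 library left out. The 5 paralog ratios whose groups were apart kept their direction under the alternatives run for ratios, which were the pseudocount of 0.1, quantile normalisation and each library left out. Chd7 and other members under 5 FPKM rest on fewer reads than Chd3. Only 3 libraries a group limit what can be called.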
